A study of Mus musculus with 3 samples.

Results

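The genes described here are 8 transcription factors that define the erythroid and megakaryocyte branch of blood formation: Gata1, Gata2, Klf1, Zfpm1, Tal1, Nfe2, Gfi1b and Fli1. They were found by their symbol among the 56980 genes listed for each library, and each of the 8 symbols belonged to 1 row. Bone marrow nucleated cells (BMNCs) were flushed from femurs of C57BL/6 mice, and the Control library came from mice without irradiation. The IR library came from mice given 6 Gy of gamma-irradiation and the solvent, soybean oil with DMSO, and the IR+CBD library from mice given 6 Gy and cannabidiol (CBD) in that solvent by injection. All 3 libraries are of day 14, with no genetic change in any group. The label of the IR+CBD library names CBD alone, and its irradiation is taken from the design text of the series. The age of these animals is not given in the sources used here. Each library pooled 3 mice, and the loaded suspension was made by mixing sorted Lin-Kit+, Lin-Kit- and Lin+ populations in a ratio of 5:4:1, so a share of cells refers to that mixture and not to marrow. With 1 library per group there are no replicates, no test between groups was possible, and differences between pools of mice, sorts or library preparations cannot be told apart from the treatment.

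Red cells and platelets arise from a common progenitor, and a small set of factors decides between them. GATA2 acts in stem and early progenitor cells and in mast cells and basophils, and is replaced at its sites by GATA1 as erythroid cells mature, a step known as the GATA switch. FOG1, the product of Zfpm1, is the GATA1 partner, TAL1 binds E-boxes in the same complexes, and GFI1B is a repressor needed in both lineages. KLF1 turns on the erythroid programme and opposes FLI1, the ETS factor of megakaryocytes, while NFE2 is the p45 subunit of a factor needed to form platelets.

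Sequence upstream of the gene start was taken from RefSeq (GRCm38.p6) for 6 of the 8 members, with 8 start sites among them, and Nfe2 and Fli1 had no entry. The 250 bases before the start are printed for Gata1, Klf1, Gfi1b and Zfpm1, because these 4 members were higher together in the irradiated libraries, as described below. They are chrX:7967911-7968160 on the minus strand for Gata1, chr8:84901732-84901981 on the plus strand for Klf1, chr2:28621983-28622232 on the minus strand for Gfi1b and chr8:122281891-122282140 on the plus strand for Zfpm1, each written 5′ to 3′ on the strand of the gene. Capitals mark matches, on either strand, to the GATA motif AGATAA or TGATAA and to the KLF motif CCNCNCCC.
Gata1: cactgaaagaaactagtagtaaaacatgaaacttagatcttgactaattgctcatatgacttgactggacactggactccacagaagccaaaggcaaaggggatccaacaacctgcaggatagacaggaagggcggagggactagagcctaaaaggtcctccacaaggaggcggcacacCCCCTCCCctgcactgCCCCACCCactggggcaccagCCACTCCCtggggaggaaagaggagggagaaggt
Klf1: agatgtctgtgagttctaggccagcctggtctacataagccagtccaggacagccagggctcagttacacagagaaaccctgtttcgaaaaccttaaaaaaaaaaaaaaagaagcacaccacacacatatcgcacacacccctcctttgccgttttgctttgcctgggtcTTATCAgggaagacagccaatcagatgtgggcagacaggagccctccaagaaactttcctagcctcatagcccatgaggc
Gfi1b: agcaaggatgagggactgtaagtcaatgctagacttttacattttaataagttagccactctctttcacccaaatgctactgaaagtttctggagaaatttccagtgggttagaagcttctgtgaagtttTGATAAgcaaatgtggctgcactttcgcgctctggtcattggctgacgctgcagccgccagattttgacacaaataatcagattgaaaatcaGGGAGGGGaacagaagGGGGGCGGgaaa
Zfpm1: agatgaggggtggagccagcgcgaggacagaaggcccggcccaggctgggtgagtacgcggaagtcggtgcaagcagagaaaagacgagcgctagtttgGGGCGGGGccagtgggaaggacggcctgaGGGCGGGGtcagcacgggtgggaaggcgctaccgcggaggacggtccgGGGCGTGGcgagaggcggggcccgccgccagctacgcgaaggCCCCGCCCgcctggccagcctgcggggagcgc

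The Klf1 sequence held 1 GATA match, starting at position -80 from the start, and an E-box (CAGNTG, not in capitals) at -59, a motif found in 44.8% of promoters. The Gfi1b sequence held a GATA match at -120 and KLF matches at -28 and -12. The Gata1 sequence held KLF matches at -71, -55 and -34, and the Zfpm1 sequence at -151, -122, -74 and -32, with no GATA match in either. Among all 8 start sites of the members, 3 held the GATA motif and 6 the KLF motif, against 16.6% and 45.9% of all 32817 promoters of this length. The variant AGATAG or TGATAG, found in 13.3% of promoters, the ETS motif (CCGGAAGT or AGGAAGT, 10.4%) and the NF-E2 motif (TGAGTCA, 4.46%) had no match in these 8. A match is a description of letters and not a bound site.

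Counts are of UMIs (unique molecular identifiers), the barcodes that mark single captured RNA molecules. After removing barcodes with under 200 genes or over 5% mitochondrial UMIs, 10674 Control, 10345 IR and 10273 IR+CBD cells remained of 12200, 11951 and 11884 barcodes. They held between 173466089 and 202361682 UMIs per library, with medians of 12480, 14211 and 12502 per cell, and 35 to 51 barcodes were shared between any pair of libraries. A level is given as CPM, the UMIs of a gene per 1000000 UMIs summed over the cells named. Values in parentheses are 95% intervals, exact Poisson for CPM, exact conditional binomial for a ratio and exact Clopper-Pearson for a share, and all cover counting error only. A gene is called past the fold where the ratio of its CPM reached 1.5-fold in either direction with at least 50 UMIs in both libraries together. Because levels were counted from the ends of transcripts and not scaled to length, a gene is compared with itself across cells and libraries, not with another gene.

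Cells were gated by raw UMIs of genes that are not members. The Car1 gate (5 or more UMIs of carbonic anhydrase 1) holds erythroid progenitors, and the Slc4a1 gate (2 or more UMIs of the band 3 anion exchanger) holds later erythroblasts. The Pf4-Itga2b gate (2 or more of platelet factor 4 with 1 or more of integrin alpha IIb) was set for megakaryocytes, and the Mcpt8 gate (2 or more of a basophil protease) was set for basophils. The Mpo gate (5 or more of myeloperoxidase) holds granulocyte-monocyte progenitors, and the Cd34-Adgrl4 gate (1 or more of each) early progenitors. All 9 erythroid markers checked were above the level of all cells in the Car1 and Slc4a1 gates of each library, and 8 or 9 of 9 megakaryocyte markers were so in the Pf4-Itga2b gate. That gate also had 7, 8 and 7 of 8 stem and multipotent markers above all cells, with a sum of 820, 861 and 889 CPM, so it is called by its rule as well. The Mcpt8 gate had all 6 basophil markers above all cells, but also all 6 granulocyte-monocyte progenitor and all 6 eosinophil markers, and 661 of its 701 Control cells also met the Mpo gate, so it is called by its rule. The Cd34-Adgrl4 gate had all 8 stem and multipotent markers and 5 of 6 granulocyte-monocyte markers above all cells, and 2149 of its 3116 Control cells met the Mpo gate too. Gates with a UMI minimum favour deep cells, with medians of 32290, 39888 and 37031 UMIs in the Car1 gate.

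Over all kept cells, the factors of the erythroid branch were higher in both irradiated libraries than in Control, and Fli1 was lower. Klf1, Gfi1b, Gata1 and Zfpm1 were 1.62-fold to 2.60-fold higher in IR than in Control, Tal1 was 1.40-fold higher, Gata2 and Nfe2 were at 1.03 and 0.963 of Control, and Fli1 was at 0.734 of Control. In IR+CBD each of the 8 stayed between 0.882 and 1.10 of its IR level. The comparison of IR with Control sets an irradiated beside an unirradiated library on day 14. That of IR+CBD with IR sets the irradiated library with CBD beside the one with solvent alone. Neither can tell the treatment apart from differences between the pools of mice.

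Gata1, the master factor of red cells, stood at 18.2 CPM (17.6 to 18.8) in Control, 37.3 CPM (36.5 to 38.2) in IR and 34.8 CPM (33.9 to 35.7) in IR+CBD. Control was the low library, and its interval overlapped neither of the others. Klf1 stood at 26.7 CPM (25.9 to 27.4) in Control, 69.3 CPM (68.1 to 70.4) in IR and 61.1 CPM (60.0 to 62.3) in IR+CBD. Gfi1b stood at 17.5 CPM (16.9 to 18.1), 40.8 CPM (40.0 to 41.7) and 36.6 CPM (35.7 to 37.5) in the same order. For all 3 genes IR was the highest library, IR+CBD came next and Control was lowest. Zfpm1, whose product FOG1 binds GATA1, had 48.1 CPM (47.1 to 49.1), 78.1 CPM (76.9 to 79.3) and 73.1 CPM (71.8 to 74.3). Tal1 had 25.8 CPM (25.1 to 26.5), 36.1 CPM (35.2 to 36.9) and 34.8 CPM (33.9 to 35.7), and its IR and IR+CBD intervals overlapped.

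Gata2, the earlier GATA factor, had 35.7 CPM (34.9 to 36.6) in Control, 36.9 CPM (36.1 to 37.8) in IR and 37.8 CPM (36.9 to 38.7) in IR+CBD. Nfe2 had 34.9 CPM (34.0 to 35.7), 33.6 CPM (32.8 to 34.4) and 34.7 CPM (33.8 to 35.5). For Nfe2 the 3 intervals overlapped, and for Gata2 each overlapped its neighbour. Fli1 had 167 CPM (165 to 169), 123 CPM (121 to 124) and 135 CPM (133 to 136), so here Control was the high library and IR the low one.

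By ratio, IR over Control was 2.60 (2.52 to 2.68) for Klf1, 2.33 (2.24 to 2.43) for Gfi1b, 2.05 (1.97 to 2.14) for Gata1 and 1.62 (1.58 to 1.67) for Zfpm1. These 4 of the 8 members were past 1.5-fold, all higher, where 5.25% of the 20226 genes with enough UMIs were past it in that direction. Against Control, IR+CBD had the same 4 members past the fold, with ratios of 2.29, 2.09, 1.92 and 1.52 in that order, where 4.01% of genes were. Between IR+CBD and IR no member was past the fold, where 5.67% of genes were in either direction. The lowest IR+CBD over IR ratio was 0.882 (0.860 to 0.905) for Klf1 and the highest 1.10 (1.08 to 1.12) for Fli1, and both comparisons with IR+CBD share a library with the first. With each cell thinned to 2000 UMIs, Zfpm1 was at 1.34 in IR over Control, and in IR+CBD over Control Gfi1b was at 1.45 and Zfpm1 at 1.19, so these were no longer past the fold. With each cell weighted equally Zfpm1 was at 1.34 and 1.20 of Control in IR and IR+CBD, and with no filter on cells it was at 1.49 in IR+CBD.

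**Figure D1:**
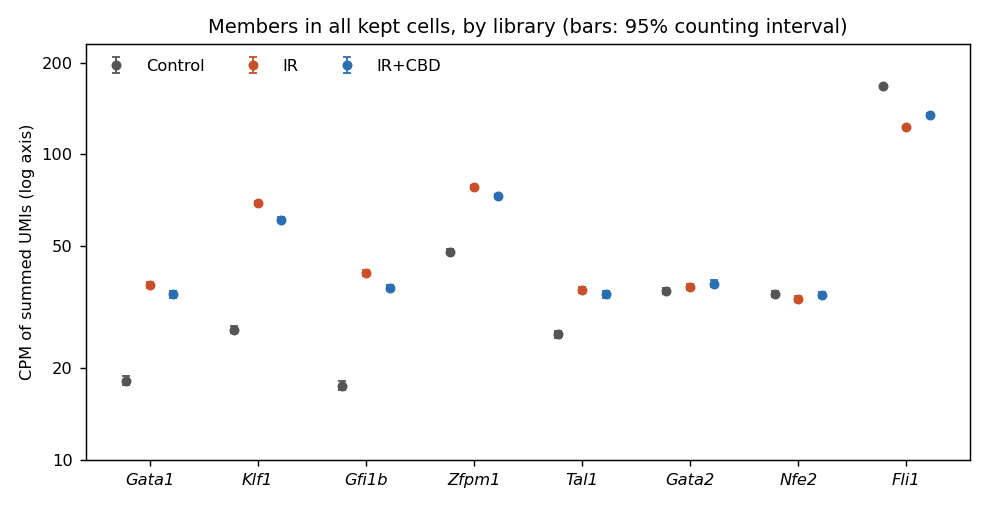
CPM (log axis) of each member over all kept cells in the Control, IR and IR+CBD libraries, 1 point per library with its 95% counting interval as a bar. Gata1, Klf1, Gfi1b and Zfpm1 lie higher in IR and IR+CBD than in Control, Gata2 and Nfe2 lie level, and Fli1 lies highest in Control.

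The mixture of cells moved with these sums. Car1-gated cells were 7.62% (7.12 to 8.14) of Control, 14.8% (14.1 to 15.5) of IR and 13.2% (12.6 to 13.9) of IR+CBD cells, and carried 14.3%, 30.7% and 28.7% of all UMIs. The summed level of the 9 erythroid markers, 2 of which are the members Klf1 and Gata1, was 606, 1394 and 1299 CPM over all cells. Pf4-Itga2b-gated cells were 1.39% (1.17 to 1.63), 0.73% (0.58 to 0.92) and 1.06% (0.87 to 1.28), and the summed level of 9 megakaryocyte markers was 19.0, 14.8 and 16.5 CPM. Cd34-Adgrl4-gated cells were 29.2%, 18.9% and 19.2% of the libraries. A sum over all cells holds both the number of cells of a kind and the level within them, and the gates give the level apart.

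Most of the RNA of Klf1, Gata1 and Gfi1b lay in the Car1 gate, and little of that of Fli1 did. The Car1 gate held 94.9% of the Control, 89.2% of the IR and 92.3% of the IR+CBD UMIs of Klf1. It held 80.8%, 83.9% and 86.1% of those of Gata1 and 81.0%, 86.1% and 87.5% of those of Gfi1b. Zfpm1 and Tal1 were split, with 45.1% and 48.3% of their Control UMIs in the gate and 64.5% and 69.4% of their IR UMIs. Of Gata2 the gate held 23.1%, 46.0% and 38.8%, of Nfe2 13%, 28.8% and 24.5%, and of Fli1 3.7%, 6.3% and 5.1%.

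Across the 6 gates the members fell into 3 patterns. Gata1, Klf1 and Tal1 were highest in the Slc4a1 gate and next highest in the Car1 gate of each library. For Gata1 the Control levels were 139 CPM in the Slc4a1 gate, 102 CPM in the Car1 gate, 41.1 CPM in the Pf4-Itga2b gate, 9.74 CPM in the Mcpt8 gate, 5.97 CPM in the Cd34-Adgrl4 gate and 5.46 CPM in the Mpo gate, and the intervals of the last 2 overlapped. IR and IR+CBD had the same first 4 gates in that order. Klf1 was the more confined, at 238, 269 and 277 CPM in the Slc4a1 gate, 177, 201 and 197 CPM in the Car1 gate and at most 27.2 CPM in any other gate of a library. Tal1 had 130, 141 and 146 CPM in the Slc4a1 gate, and in each library its Car1 and Pf4-Itga2b intervals overlapped, at 87.0 and 78.8 CPM in Control.

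Zfpm1 and Gfi1b were shared by the erythroid gates and the Pf4-Itga2b gate. Zfpm1 stood at 235, 277 and 249 CPM in the Slc4a1 gate, 206, 215 and 220 CPM in the Pf4-Itga2b gate and 151, 164 and 164 CPM in the Car1 gate. In Control and IR+CBD its Slc4a1 and Pf4-Itga2b intervals overlapped. Gfi1b was the only member led by the Car1 gate in every library, at 98.9, 115 and 112 CPM, followed by the Slc4a1 gate at 68.7, 86.7 and 92.9 CPM and the Pf4-Itga2b gate at 48.6, 51.5 and 65.0 CPM. In IR+CBD the Car1 and Slc4a1 intervals of Gfi1b overlapped.

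Gata2, Nfe2 and Fli1 were led by the Pf4-Itga2b gate. Gata2 stood there at 141 (129 to 153), 143 (127 to 160) and 173 (157 to 191) CPM, next in the Mcpt8 gate at 90.2, 98.7 and 86.3 CPM and then in the Car1 gate at 57.6, 55.3 and 51.1 CPM. The order of its 6 gates was the same in the 3 libraries, with no overlap between neighbours. Fli1 stood at 467 (445 to 489), 450 (422 to 479) and 418 (392 to 445) CPM in the Pf4-Itga2b gate, between 136 and 174 CPM in the Mcpt8, Mpo and Cd34-Adgrl4 gates, and at most 42.7 CPM in the Car1 and Slc4a1 gates. Nfe2 differed least between gates, from 29.6 CPM in the Car1 gate of IR+CBD to 81.5 CPM in the Pf4-Itga2b gate of IR. Fli1 is overlapped by 5 other listed genes, with 159 to 3163 UMIs each per library, and reads in the shared stretches may have been assigned to either or to none.

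**Figure D2:**
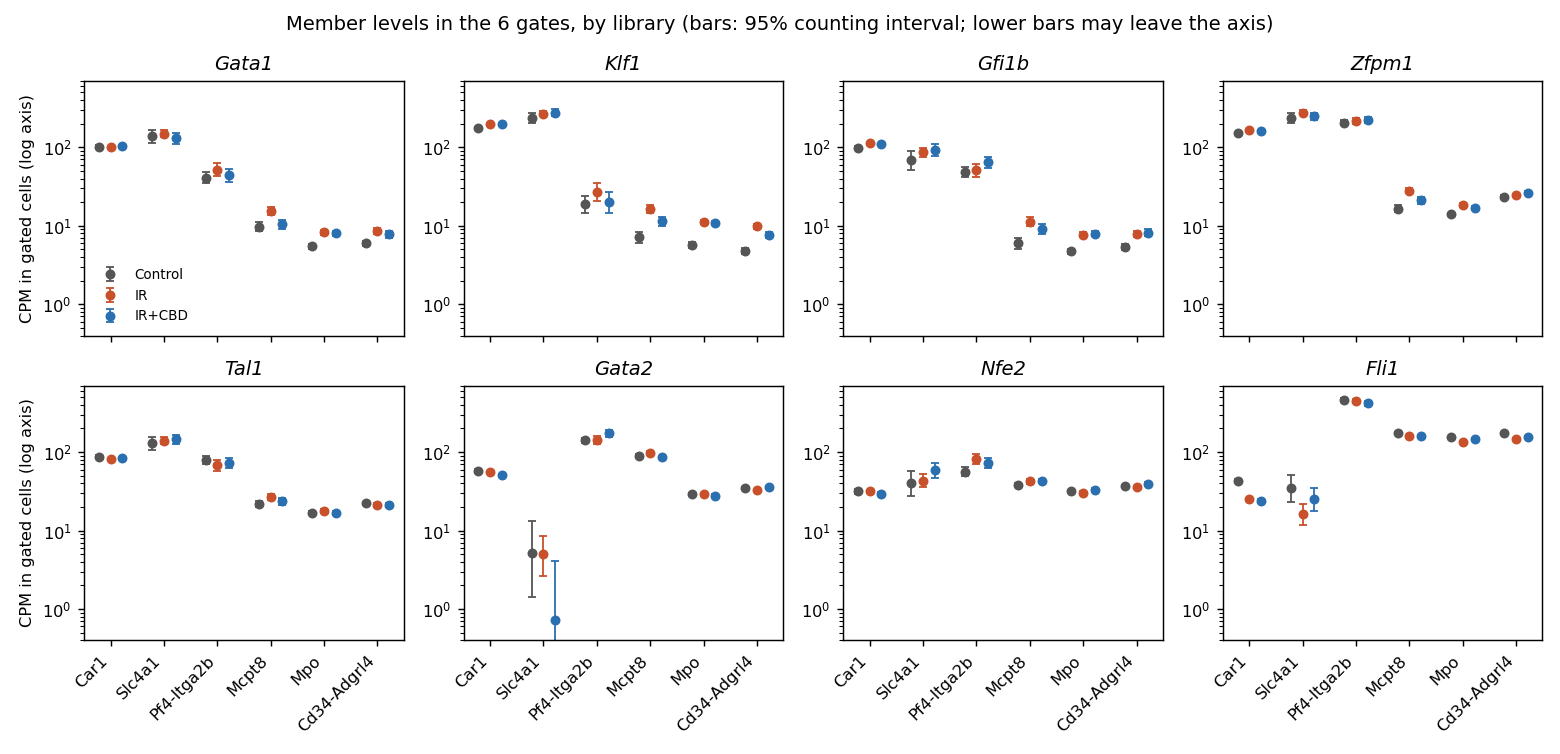
CPM (log axis) of each member in the 6 gates (x axis), 1 point per library (Control, IR, IR+CBD) with its 95% counting interval. Klf1, Gata1, Tal1 and Gfi1b are high in the Car1 and Slc4a1 gates, Fli1 and Gata2 are high in the Pf4-Itga2b gate, and Gata2 is lowest in the Slc4a1 gate, at 5.18, 4.96 and 0.726 CPM.

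Within the Car1 gate the members were close between libraries, apart from Fli1. Gata1 had 102 (98.8 to 106) CPM in Control, 102 (99.4 to 104) CPM in IR and 104 (102 to 107) CPM in IR+CBD. The 3 intervals overlapped, although the sums over all cells differed 2.05-fold. Klf1 had 177 (172 to 182), 201 (198 to 205) and 197 (193 to 201) CPM and Gfi1b 98.9 (95.3 to 103), 115 (112 to 117) and 112 (109 to 115) CPM, both low in Control. By ratio, IR over Control was 1.14 (1.10 to 1.18) for Klf1, 1.16 (1.11 to 1.21) for Gfi1b, 1.08 (1.05 to 1.12) for Zfpm1, 0.995 (0.951 to 1.04) for Gata1, 0.936 (0.892 to 0.983) for Tal1, 0.960 (0.905 to 1.02) for Gata2 and 0.997 (0.920 to 1.08) for Nfe2. None of these 7 was past the fold, although Gata2 thinned to 2000 UMIs per cell was at 0.739 of Control in IR. In IR+CBD thinned Gata2 was at 0.638 of Control, past the fold, and a share over all genes is not given for that setting. IR+CBD over IR lay between 0.924 (0.877 to 0.973) for Gata2 and 1.02 (0.988 to 1.06) for Gata1, and no member of the 8 was past the fold, where 4.84% of the 14664 genes tested there were in either direction.

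Fli1 was the exception in the Car1 gate, with 42.7 CPM (40.3 to 45.2) in Control, 25.0 CPM (23.8 to 26.3) in IR and 23.9 CPM (22.5 to 25.2) in IR+CBD. Control was the high library and the intervals of IR and IR+CBD overlapped. IR over Control was 0.585 (0.542 to 0.632) and IR+CBD over Control 0.558 (0.515 to 0.606), so 1 of 8 members was past the fold in each comparison, lower, where 8.64% and 9.36% of genes were past it in that direction. Fli1 was found in 47.7%, 35.6% and 33.6% of the Car1-gated cells, and in 10.1%, 4.96% and 6.04% after thinning to 2000 UMIs. Without predicted doublets the ratios were 0.534 (0.481 to 0.593) and 0.486 (0.433 to 0.544). Spi1, which encodes the myeloid factor PU.1, had 32.5, 22.6 and 20.9 CPM in the same cells, and Meis1, a stem cell homeobox gene, 41.2, 29.4 and 22.7 CPM. The summed stem and multipotent markers (8 of 8 detected) were at 189, 145 and 146 CPM, those of megakaryocytes at 24.4, 25.7 and 25.1 CPM and those of endothelium at 69.1, 75.9 and 71.7 CPM in the Car1 gate. The 6 basophil markers, all detected, summed to 70.0, 33.3 and 36.0 CPM there, with Prss34, a basophil protease, at 36.0, 7.14 and 14.0 CPM. With cells that met 2 or more gates left out, Fli1 was at 0.603 of Control in IR and 0.508 in IR+CBD. The part of such cells in the Fli1 difference was not otherwise tested.

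**Figure D3:**
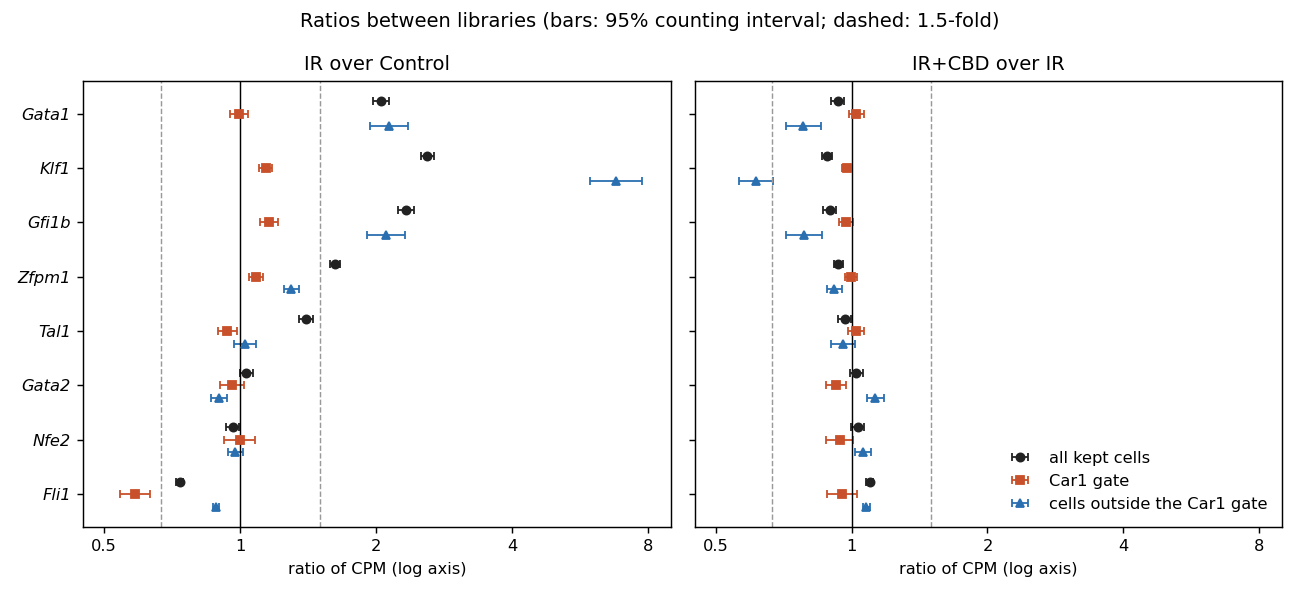
Ratio of CPM between libraries (log axis) for each member, IR over Control on the left and IR+CBD over IR on the right, in all kept cells (circles), the Car1 gate (squares) and the cells outside it (triangles), with 95% counting intervals and dashed lines at 1.5-fold. In the Car1 gate the IR over Control ratios lie near 1 except for Fli1 at 0.585, and outside it Klf1 reaches 6.80.

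The Car1 gate was divided by the Klf1 UMIs of each cell, as a coarse order of erythroid maturation in which Klf1 itself is not described. Cells with no Klf1 UMI were 19.4% (16.8 to 22.3) of the gate in Control, against 8.74% (7.37 to 10.3) in IR and 9.79% (8.26 to 11.5) in IR+CBD, and cells with 3 or more were 62.7% (59.3 to 66.1), 76.6% (74.4 to 78.7) and 73.9% (71.5 to 76.3). The number of Klf1 UMIs also follows depth, with Control medians of 11723 UMIs in cells without Klf1, 17801 in cells with 1 to 2 and 41263 in cells with 3 or more. The same medians were 15545, 19790 and 44315 in IR and 13162, 16714 and 41290 in IR+CBD. The part of this depth in comparisons between libraries within a class was not tested.

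Gata2 and Fli1 were high in the cells without Klf1 and low in those with 3 or more, and Gfi1b ran the other way. In Control, Gata2 had 233 (214 to 253) CPM in cells with no Klf1 UMI, 125 (113 to 138) CPM with 1 to 2 and 29.2 (27.0 to 31.5) CPM with 3 or more. In IR it had 178, 147 and 41.5 CPM and in IR+CBD 189, 127 and 36.6 CPM, so the order was the same in each library. Fli1 had 125 (111 to 140), 112 (100 to 123) and 23.8 (21.8 to 25.9) CPM in Control, 120, 79.4 and 15.9 CPM in IR and 107, 71.4 and 15.0 CPM in IR+CBD. Gfi1b had 40.0, 55.5 and 112 CPM in Control, 42.5, 68.9 and 122 CPM in IR and 52.1, 72.1 and 119 CPM in IR+CBD. Gfi1b was therefore lowest where Gata2 and Fli1 were highest, in all 3 libraries.

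Fli1 was also compared between libraries within these classes. IR over Control was 0.960 (0.810 to 1.14) in cells with no Klf1 UMI, 0.712 (0.617 to 0.821) with 1 to 2 and 0.668 (0.599 to 0.746) with 3 or more. IR+CBD over Control was 0.856 (0.714 to 1.03), 0.640 (0.550 to 0.745) and 0.628 (0.559 to 0.705). The intervals of the first class held 1 in both comparisons, and those of the other classes did not, but the difference between classes was not tested and the intervals of the first and second classes overlapped. Gata2 differed in direction between the classes, at 0.764 (0.670 to 0.870), 1.18 (1.05 to 1.33) and 1.42 (1.30 to 1.56) for IR over Control, although its ratio over the whole gate was 0.960. IR+CBD over IR for Fli1 was 0.892 (0.742 to 1.07), 0.900 (0.776 to 1.04) and 0.939 (0.847 to 1.04), each interval holding 1.

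**Figure D4:**
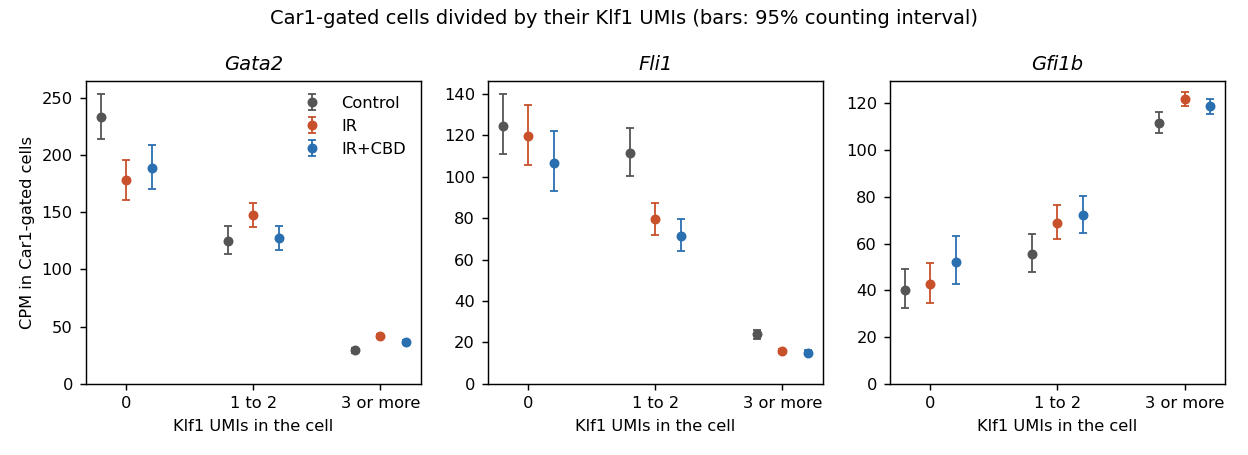
CPM of Gata2, Fli1 and Gfi1b in Car1-gated cells with 0, 1 to 2, and 3 or more Klf1 UMIs (x axis), 1 point per library with its 95% counting interval, on linear axes from 0. Gata2 and Fli1 lie lower toward the right in each library and Gfi1b runs upward, with Fli1 highest in Control in the cells with 1 or more Klf1 UMIs.

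In the Slc4a1 gate, the later erythroblasts, Gata2 was close to no UMIs while Gata1 was at its highest level of the 6 gates. The gate held 32 Control, 101 IR and 72 IR+CBD cells, or 0.30% (0.21 to 0.42), 0.98% (0.80 to 1.19) and 0.70% (0.55 to 0.88). Gata2 had 4 UMIs in Control, against 13 in IR and 1 in IR+CBD, where Gata1 had 107, 389 and 179. Gata1 stood at 139 (114 to 168), 149 (134 to 164) and 130 (112 to 150) CPM, with the 3 intervals overlapping. Klf1 stood at 238 (205 to 276), 269 (249 to 289) and 277 (249 to 306) CPM and Tal1 at 130 (105 to 158), 141 (127 to 156) and 146 (126 to 168) CPM, also with overlapping intervals. Most of these cells met another gate too. With those left out the gate held 7 Control, 32 IR and 31 IR+CBD cells, and IR over Control was 2.95 for Gata1, 5.01 for Klf1, 4.24 for Tal1, 5.34 for Zfpm1 and 6.63 for Gfi1b, on 1 to 4 Control UMIs of each. Of the 7 members with enough UMIs, Fli1 was past the fold in IR over Control, at 0.469 (0.283 to 0.790). Of 6590 genes, 4.26% were lower past it. The Fli1 ratio rested on 27 UMIs in Control and 43 in IR. The cells that met no other gate held 14 Control, 14 IR and 16 IR+CBD UMIs of Fli1, at 165.6, 21.95 and 45.78 CPM. The 6 neutrophil markers summed to 3248, 3050 and 5684 CPM in the whole gate. The part of such cells and of this RNA in the Fli1 ratios was not tested. IR+CBD over IR for Fli1 was 1.55 (0.961 to 2.47), past the fold with an interval that holds 1, where 4.12% of genes were higher past it.

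The 2 GATA genes were also set side by side as the Gata1 share of their joint UMIs, a share that no scaling of the libraries moves. It was low in early progenitors and near its limit in erythroblasts, with 14.6%, 20.9% and 17.9% in the Cd34-Adgrl4 gate, 64.0% (62.6 to 65.4), 64.8% (63.9 to 65.8) and 67.1% (66.1 to 68.2) in the Car1 gate and 96.4% (91.0 to 99.0), 96.8% (94.5 to 98.3) and 99.4% (96.9 to 99.99) in the Slc4a1 gate, in the order Control, IR and IR+CBD. Control and IR overlapped in the Car1 and Slc4a1 gates, and IR+CBD lay above IR in the Car1 gate with no overlap. Over all cells the share was 33.7% (32.8 to 34.6), 50.3% (49.5 to 51.1) and 47.9% (47.1 to 48.8). The all-cell shares therefore differed between the libraries more than those in the Car1 gate did. The Pf4-Itga2b gate had 22.6%, 26.7% and 20.3% with overlapping intervals, and the Mcpt8 gate the lowest share at 9.74%, 13.6% and 10.8%.

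Inside the Car1 gate the Gata1 share also differed with the Klf1 UMIs of the cell. In cells with no Klf1 UMI the Gata1 share was 21.0% (18 to 24.2) in Control, against 27.9% (24.2 to 31.8) in IR and 27.1% (23.3 to 31.1) in IR+CBD, and in cells with 3 or more it was 79.4% (77.9 to 80.8), 71.9% (70.9 to 72.9) and 74.9% (73.9 to 76.0). Control was thus the lowest library in the first class and the highest in the last. UMIs of both genes were found in 52.2% (48.7 to 55.6), 59.1% (56.6 to 61.6) and 53.8% (51.1 to 56.5) of Car1-gated cells, of Gata1 without Gata2 in 31.9%, 28.8% and 33.4%, and of Gata2 without Gata1 in 12.1%, 9.07% and 8.69%. The share over the gate depends on the weight of its deep cells: with each cell weighted equally it was 48.5%, 56.3% and 58.0%.

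**Figure D5:**
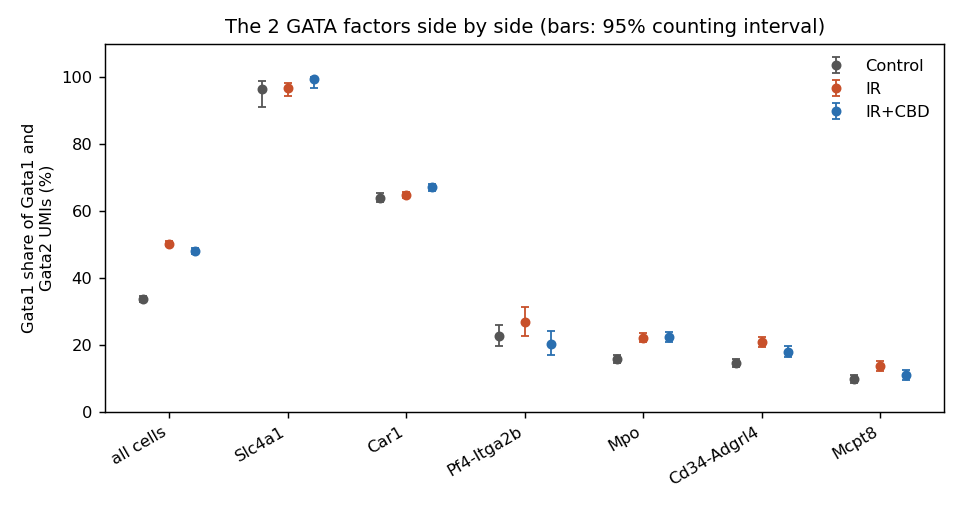
Gata1 share (%) of the Gata1 and Gata2 UMIs together, over all kept cells and in the 6 gates (x axis), 1 point per library with its exact 95% interval. The Slc4a1 gate lies above 96%, the Car1 gate between 64.0% and 67.1% and the Mcpt8 gate lowest, and over all cells Control lies at 33.7% below IR at 50.3% and IR+CBD at 47.9%.

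In the Pf4-Itga2b gate no member was past the fold in any of the 3 comparisons, where 9.45%, 5.65% and 7.92% of genes were in IR over Control, IR+CBD over IR and IR+CBD over Control. The gate held 148 Control, 76 IR and 109 IR+CBD cells. Fli1 was at 0.964 (0.890 to 1.04) of Control in IR, Zfpm1 at 1.04 (0.926 to 1.17) and Gata2 at 1.02 (0.879 to 1.17), so the level of these per UMI was close while the gate held fewer cells in IR. Nfe2, the platelet factor gene, had 56.3 (48.9 to 64.4), 81.5 (69.8 to 94.5) and 72.9 (62.3 to 84.7) CPM, with Control the low library and a ratio of 1.45 (1.18 to 1.78) in IR over Control. Gata2 was higher in IR+CBD than in the others, at 1.21 (1.04 to 1.41) of IR. With cells that met 2 or more gates left out it was not, at 0.988 of IR and 0.922 of Control. Thinned to 2000 UMIs per cell, Gata2 was at 0.511 of Control in IR and at 1.94 of IR in IR+CBD. Klf1 had 71, 58 and 46 UMIs here, of which 9, 21 and 15 remained when cells that also met the Car1 gate were left out.

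The genes of the megakaryocyte list, which hold the surface receptors and granule proteins that these factors are known to act on, were in part lower in that gate. Of 17 with enough UMIs, 7 were lower past the fold in IR over Control, where 4.46% of genes were, and 1 was higher, where 4.99% were. The median ratio of the 17 was 0.713, where the median log2 ratio of all genes tested was 0.02. Clec1b, the podoplanin receptor of platelets, was at 0.241 (0.134 to 0.409), from 31.1 CPM in Control to 7.49 CPM in IR, and Ppbp, a platelet chemokine, at 0.257 (0.0982 to 0.572). Selp, which encodes P-selectin, was the highest at 1.88 (1.30 to 2.73). Markers of other cells moved in this gate as well. The 6 neutrophil markers summed to 490, 1951 and 1658 CPM, the granulocyte-monocyte progenitor markers to 3836, 2055 and 1934 CPM and the basophil markers to 246, 115 and 113 CPM, with Prss34 at 136, 1.87 and 2.17 CPM. Their part in the list's values was not tested. In IR+CBD over IR 1 of 15 was higher, Itgb3 (integrin beta 3) at 1.91 (1.34 to 2.77), where 1.81% of genes were, and 2 were lower, where 3.84% of genes were, Mmrn1 at 0.659 (0.433 to 0.996) and Gp1bb at 0.654 (0.371 to 1.13).

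In the Mcpt8 gate 4 of the 8 members were past the fold in IR over Control, all higher, where 4.89% of genes were: Klf1 at 2.31 (1.92 to 2.79), Gfi1b at 1.88 (1.52 to 2.32), Zfpm1 at 1.70 (1.49 to 1.93) and Gata1 at 1.60 (1.35 to 1.90). Tal1 was at 1.23 (1.09 to 1.39), Nfe2 at 1.12 (1.02 to 1.22), Gata2 at 1.09 (1.03 to 1.16) and Fli1 at 0.914 (0.873 to 0.956). With doubled gate thresholds none of the 4 calls was kept, with Klf1 at 1.07, Gfi1b at 1.07, Zfpm1 at 1.15 and Gata1 at 0.976. With each cell weighted equally Gata1 was at 1.35, Zfpm1 at 1.45 and Gfi1b at 1.49. Without predicted doublets the 4 ratios were higher, with Klf1 at 4.61, Gfi1b at 1.99, Zfpm1 at 1.74 and Gata1 at 1.68. Erythroid RNA was in these cells as well: 18 of 34 erythroid list genes were higher past the fold, with Hbb-bs, an adult beta globin, at 15.2 CPM in Control, 106 CPM in IR and 11.0 CPM in IR+CBD. The gate shared 18, 32 and 26 cells with the Car1 gate. Without them Klf1 was at 2.23 (1.51 to 3.34), from 1.81 to 4.04 CPM, Gata1 at 1.58 (1.27 to 1.96), from 6.73 to 10.6 CPM, Zfpm1 at 1.41 (1.20 to 1.65) and Gfi1b at 1.31 (0.962 to 1.78). In IR+CBD over IR no member was past the fold, where 4.84% of genes were in either direction, and the lowest was Gata1 at 0.674 (0.563 to 0.804), which was 1.03 with doubled thresholds. Without predicted doublets Klf1 was at 0.414 and Gata1 at 0.536, while Klf1 was at 1.47 with doubled thresholds. Without the Car1-gated cells Gata1 was at 0.572 (0.449 to 0.725) and Klf1 at 0.523 (0.346 to 0.780) of IR, both past the fold. The other members were within it, and a share over all genes is not given for that setting.

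In the Mpo gate 3 members were past the fold in IR over Control, where 3.82% of genes were higher past it: Klf1 at 1.97 (1.79 to 2.18), Gfi1b at 1.64 (1.46 to 1.84) and Gata1 at 1.52 (1.37 to 1.70). In the Cd34-Adgrl4 gate Klf1 was, at 2.07 (1.83 to 2.34), where 3.22% of genes were. Without predicted doublets none of these calls was kept: in the Mpo gate Klf1 was at 1.38, Gata1 at 1.06 and Gfi1b at 0.990, and in the Cd34-Adgrl4 gate Klf1 was at 1.13. With each cell weighted equally Gata1 was at 1.21 and Gfi1b at 1.23 in the Mpo gate, and Gfi1b thinned to 2000 UMIs was at 0.851. Other settings raised the ratios of that gate. Klf1 was at 4.62 and Gfi1b at 2.12 with cells of 2 or more gates left out, and Gata1 at 1.74 with doubled thresholds. In the Cd34-Adgrl4 gate Gata1 was at 1.45 (1.29 to 1.63) and Gfi1b at 1.46 (1.29 to 1.65), and at 0.938 and 0.739 without predicted doublets. Zfpm1 was at 1.32 (1.23 to 1.41) in the Mpo and 1.04 (0.979 to 1.11) in the Cd34-Adgrl4 gate. Gata2 was at 1.00 (0.951 to 1.05) and 0.938 (0.888 to 0.990) in the 2 gates, Nfe2 at 0.943 and 0.963, Tal1 at 1.05 and 0.953, and Fli1 at 0.885 (0.865 to 0.906) and 0.840 (0.820 to 0.862). Without the cells that also met the Car1 gate, Gata1 was at 1.31 (1.12 to 1.54) and Gfi1b at 1.16 (0.963 to 1.41) in the Mpo gate, while Klf1 was at 2.56 (2.04 to 3.24) there and 1.87 (1.44 to 2.44) in the Cd34-Adgrl4 gate, at no more than 2.73 CPM in either. In IR+CBD over IR, Klf1 without those cells was at 0.582 (0.465 to 0.727) in the Mpo gate, past the fold. It was at 0.680 (0.507 to 0.906) in the Cd34-Adgrl4 gate. With those cells Klf1 was at 0.970 and 0.774.

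B-lineage cells (2 or more UMIs of both Cd79a and Cd79b), which are not known to use GATA1 or KLF1, were measured beside these low levels. They held UMIs of Gata1 in 2.04%, 4.47% and 2.72% of cells and of Klf1 in 1.86%, 4.68% and 3.0%, at medians of 4168, 3857 and 3459 UMIs per cell. In the Mpo gate the shares were 7.81%, 9.98% and 7.95% for Gata1 at medians of 33196, 30684 and 24151 UMIs. At 2000 UMIs per cell, Gata1 was found in 0.871%, 1.30% and 0.974% of Mpo-gated and 0.29%, 1.39% and 0.792% of B-lineage cells, and Klf1 in 0.529%, 1.34% and 1.16% against 0.613%, 1.74% and 0.826%. Some cells of both gates met the Car1 gate. With those left out and each cell at 2000 UMIs, Gata1 was found in 0.605%, 1.00% and 0.479% of Mpo-gated and 0.196%, 0.801% and 0.458% of B-lineage cells, and Klf1 in 0.159%, 0.574% and 0.287% against 0.326%, 0.801% and 0.353%. The Klf1 share of the Mpo gate was thus below that of B-lineage cells in all 3 libraries and is not read as expression, while the Gata1 share was above it. The intervals of these shares overlapped for both genes in each library. By CPM without Car1-gated cells, Gata1 had 2.89 (2.57 to 3.23), 3.78 (3.39 to 4.22) and 2.83 (2.47 to 3.23) in the Mpo gate. In IR that is below the 4.15 CPM (3.43 to 4.98) of B-lineage cells, with overlapping intervals. Klf1 UMIs per Gata1 UMI in B-lineage cells, with the Car1-gated ones included, were 1.63, 1.91 and 1.90, and in the Car1 gate 1.72, 1.97 and 1.88. Without the Car1-gated ones, B-lineage cells held 34, 203 and 36 UMIs of Klf1 and 39, 117 and 34 of Gata1. The B-lineage levels of Gata1 were 5.04, 17.6 and 12.6 CPM, and 1.39, 4.15 and 1.67 CPM once the 37, 115 and 68 cells that also met the Car1 gate were left out. Klf1 then had 1.21, 7.20 and 1.77 CPM in B-lineage cells, with IR at 5.94 (4.11 to 8.81) of Control. Its IR levels in the Mcpt8, Mpo and Cd34-Adgrl4 gates without Car1-gated cells were lower, at 4.04, 2.73 and 2.18 CPM. Gfi1b without Car1-gated cells had 3.497, 4.967 and 3.98 CPM in B-lineage cells. It was lower in the Mpo gate, at 2.15, 2.51 and 2.28 CPM, with no overlap of intervals. In the Mcpt8 gate it had 3.71, 4.85 and 4.12 CPM, with overlapping intervals in each library. In the Cd34-Adgrl4 gate it had 3.57, 3.47 and 4.11 CPM, below B-lineage cells in IR and with overlapping intervals in Control and IR+CBD. The part of such a background in the Klf1 and Gfi1b ratios of those gates was not tested. Zfpm1 was different, at 81.5 (78.3 to 84.8), 108 (104 to 111) and 103 (98.9 to 107) CPM in B-lineage cells and 79.6, 102 and 97.2 CPM without the Car1-gated ones, and Fli1, which B cells use, stood at 241, 209 and 241 CPM.

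Outside the Car1 gate as a whole, 3 members were past the fold in IR over Control, where 5.02% of genes were higher past it. Klf1 had 1.58 (1.40 to 1.78), 10.8 (10.2 to 11.3) and 6.60 (6.16 to 7.07) CPM, with IR at 6.80 (5.96 to 7.78) of Control and IR+CBD at 0.614 (0.563 to 0.669) of IR. The latter made Klf1 the only member past the fold between IR+CBD and IR outside the gate, where 3.22% of genes were lower past it. Gata1 was at 2.14 (1.94 to 2.35) and Gfi1b at 2.10 (1.91 to 2.32) in IR over Control. The 2 classes of cells outside the gate differed: with 1 to 4 Car1 UMIs Klf1 had 2.89, 35.8 and 23.2 CPM, and with no Car1 UMI 1.35, 4.66 and 3.37 CPM. Car1 itself had 1345, 703 and 961 CPM in the Slc4a1 gate, of whose cells 78.1%, 66.3% and 56.9% met the Car1 gate. In the Car1 gate it had 3176, 1999 and 2502 CPM, a level that the rule of that gate helps to set. Over all cells Car1 had 462, 622 and 725 CPM, with Control the lowest. The part of the lower Car1 level of the irradiated libraries within the erythroid gates in these ratios was not tested.

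The partners of the 8 factors were mostly within the fold, as were most genes, and most erythroid target genes were higher in IR over all cells. Of 24 cofactors and related factors, none was higher past the fold over all cells in IR over Control, where 5.25% of genes were. Their median ratio was 0.958, and 1 was lower past the fold, where 9.82% of genes were. That gene was Meis1 at 0.572 (0.558 to 0.586), and the highest was Ldb1, the bridging protein of the GATA1 and TAL1 complex, at 1.24 (1.20 to 1.28). Of 37 erythroid genes found of a list of 38, 29 were higher and 1 lower, where 5.25% and 9.82% of genes were. The median ratio of the 37 was 2.31 (log2 1.21, against -0.05 for all genes tested). Hbb-bs was at 5.29 (5.22 to 5.37) and Hba-a2 at 4.46 (4.34 to 4.58), and the 1 lower gene was Sptan1, a spectrin also made outside red cells, at 0.632 (0.614 to 0.651). Within the Car1 gate 4 of the 37 were higher and 1 lower, where 3.41% and 8.64% of genes were, with a median of 1.12, and Hbb-bs was at 2.21 (2.15 to 2.26). In IR+CBD over IR none of the 37 was past the fold over all cells or in the Car1 gate, where 5.67% and 4.84% of genes were in either direction. Hbb-bs was the lowest of the 37 at 0.795 (0.788 to 0.803) and 0.771 (0.759 to 0.783).

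Of the megakaryocyte list, 13 of 22 genes were lower and 2 higher past the fold over all cells in IR over Control, with a median of 0.628. Of all genes tested 9.82% were lower and 5.25% higher past it. In IR+CBD over IR 1 of 20 was higher, Pf4 at 1.81 (1.74 to 1.88), from 19.8 to 35.9 CPM, where 2.82% of genes were, and 1 was lower, Mmrn1 at 0.597 (0.495 to 0.717), where 2.85% were. Of the basophil and mast list 3 of 13 genes were higher and 2 lower over all cells in IR over Control, where 5.25% and 9.82% of genes were, with a median of 0.94. In the Mcpt8 gate 2 of 13 were higher, where 4.89% of genes were, and none was lower. Fcer1a, the IgE receptor chain, was at 2.46 (2.28 to 2.65) there and Cma1, a mast cell protease, at 14.8 (8.04 to 30.4), from 0.448 to 6.65 CPM.

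The genes most like each member were taken over the 18 sums of 6 gates in 3 libraries, as Pearson's r of log2(CPM + 1) among 15888 genes. These points share libraries and overlapping gates, so r is a description. Klf1 was most like Tspo2, Blvrb and Spire1, Gata1 like Mical3, Septin8 and Nenf, and Tal1 like Nmnat3, Pheta2 and Tom1l1, each at an r of at least 0.989. Zfpm1 was most like Samd14, Mfsd2b and Tpm1 (at least 0.988), Gfi1b like Mtss1, Mettl4 and Gata1 (at least 0.976), Gata2 like Pank1, Ripor1 and Rcn3 (at least 0.960), and Nfe2 like St3gal1, Btbd8 and Gm13986 (at least 0.906). Fli1 was most like Gm37082, which overlaps it, Cacnb2 and Lcp2 (at least 0.984). Among the members, Gata1 and Tal1 had an r of 0.98 and Gata1 and Gfi1b of 0.98, Gata2 and Fli1 of 0.69, Gata1 and Gata2 of -0.33, and Klf1 and Fli1 of -0.82.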

How the data were processed

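Single-cell libraries of mouse BMNCs (10x Genomics 3′ V2 chemistry) were made by the authors, 1 per group. Their processing notes name Cell Ranger 4.0 and GRCm39, while the matrix headers name version 7.0.1. The deposited matrices hold raw counts of UMIs per gene and barcode, not normalized.

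Barcodes with at least 200 genes and at most 5% mitochondrial UMIs were kept. UMIs were summed per library over all cells and over gates set by raw UMIs, and given as CPM. No replicates exist, so no test between groups was made, and intervals are exact 95% intervals for counting error (scipy 1.17.1). Ratios were computed for all genes, and the past-fold rule needs 1.5-fold and 50 UMIs. The ratio code was tested on simulated data. Doublets were not removed in the main values; as an alternative, the highest Scrublet scores (scanpy 1.11.5), 0.8% of cells per 1000 cells, were left out. Other alternatives were no cell filter, a 10% mitochondrial limit, 1000 genes, centring on the median gene, equal weight of cells, thinning to 2000 UMIs, doubled gate thresholds and cells of 2 or more gates left out. Leaving out Car1-gated cells, also from shares of cells with a UMI, and dividing the cells outside the gate by Car1 UMIs were added after seeing the data. The recomputed values counted below include ratios without Car1-gated cells.

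Levels of all 8 members were computed in every gate. Of the cofactor, erythroid, megakaryocyte and basophil lists, counts and medians are given, with names from the 2 highest and 2 lowest ratios; Car1, Hbb-bs, Spi1 and Meis1 are also given beside results they move with. Ahsp was not found among the listed symbols. The values of 1 gene that this rule names are not reported here. The members and lists were chosen with earlier results of these data known. Overlaps were read from GENCODE M21 gene models, and promoters from RefSeq (GRCm38.p6), a different build from that of the counts. Python 3.11.15, numpy 2.4.6, pandas 2.3.3 and matplotlib 3.10.9 were used.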

Additional observations from a re-analysis of the deposited data

Results flagged for a closer look

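The barcodes removed for over 5% mitochondrial UMIs (1482, 1356 and 1179 in the order Control, IR and IR+CBD) are not used in the comparisons above, and 5 of the 8 members were at least 1.5-fold higher in IR than in Control there, where 7.73% of the 10661 genes with enough UMIs were. Gata2 was at 26.6 CPM in IR and 21.1 CPM in Control, within that fold. Klf1 was at 2.46 (1.72 to 3.56) of its Control level, with 45 UMIs in Control and 106 in IR. Gata1 was at 1.96 (1.5 to 2.56), Gfi1b at 1.88 (1.43 to 2.5), Tal1 at 1.76 (1.38 to 2.27) and Zfpm1 at 1.71 (1.51 to 1.94). In IR+CBD the levels were 7.91 CPM for Klf1, 18.9 CPM for Gata1, 21.2 CPM for Gfi1b, 32.7 CPM for Tal1 and 82.7 CPM for Zfpm1, against 24.5, 38.6, 34.2, 40.7 and 155 CPM in IR. Control had 9.98, 19.7, 18.2, 23.1 and 90.5 CPM. In these barcodes no member was higher past the fold in IR+CBD over Control, where 5.59% of genes were, while 4 members were in the kept cells. The share of all genes lower in IR+CBD than in IR is not given here.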

How the results depend on the processing

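No paired analysis was possible because each group is 1 library. Of 1622 values recomputed, 1205 stayed within the counting interval of the main value, 410 moved beyond it and 7 reversed, counting as reversed only ratios past the fold that crossed 1. Another 133 of 1487 recomputed ratios crossed 1 from a main value within the fold, among them, without predicted doublets, Gfi1b (0.739) and Gata1 (0.938) of IR over Control in the Cd34-Adgrl4 gate and Gata1 (0.899) of IR+CBD over Control in the Mpo gate. Of 211 recomputed ratios whose main value was past the fold, 40 were no longer past it, 32 of them in the Mcpt8, Mpo and Cd34-Adgrl4 gates. The reversed values are IR over Control of Gata1 in the Mcpt8 gate with doubled thresholds (0.976) and of Gfi1b in the Mpo gate without predicted doublets (0.990) and thinned (0.851), and IR+CBD over Control in the Mpo gate of Klf1 without doublets (0.808) and of Gfi1b without doublets (0.794) and thinned (0.895), and in the Cd34-Adgrl4 gate of Klf1 without doublets (0.987). The cause was not tested. Thinned to 2000 UMIs, members past the fold in IR+CBD over Control numbered 2 in all cells (main 4) and 2 in the Car1 gate (main 1), where Gata2 at 0.638 was added. A share over all genes is not given for that setting. The Gata1 share of the GATA pair in the Car1 gate of Control, IR and IR+CBD was 48.5%, 56.3% and 58.0% with equal weight of cells and 47.6%, 52.8% and 58.9% thinned, and with doubled thresholds it was 66.7% in Control and 68.4% in IR+CBD. The Car1-gate Fli1 ratio of IR over Control ranged from 0.469 to 0.603. Thinning left out 401, 296 and 452 shallow cells.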

Other observations

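Eosinophils are a further lineage that uses GATA1. A gate of 5 or more Prg2 and 1 or more Epx UMIs held 60, 50 and 46 cells in Control, IR and IR+CBD. All 6 basophil markers were also above all cells there, summing to 1628, 1718 and 2478 CPM, so it is called by its rule. Of the 1760, 2089 and 1719 Epx UMIs of the libraries, it held 1669, 2019 and 1694. The Mcpt8 gate held 1347, 1776 and 1584 of them, so the 2 gates share cells. Gata1 stood in the Prg2 and Epx gate at 34.1 (22.5 to 49.7), 42.7 (30 to 58.8) and 33.8 (19.7 to 54.0) CPM, on 27, 37 and 17 UMIs, with all 3 intervals overlapping. Gata2 stood at 56.9 (41.5 to 76.2), 57.6 (42.8 to 76.0) and 77.4 (55.1 to 106) CPM, also overlapping. These Gata1 levels lie above the 9.74, 15.6 and 10.5 CPM of the whole Mcpt8 gate, which shares cells with this gate. Predicted doublets made up 11.7%, 20% and 54.3% of these cells, and their part in the levels was not tested.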
